A study of Mus musculus with 68 samples.

Results

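Cumulus cells, the somatic cells that gave the donor nuclei, were compared with somatic cell nuclear transfer (SCNT) embryos 6 h post activation (hpa), the earliest reconstructed stage in the series. The members were the RNA-seq libraries titled as cumulus cells (CCs, 3 libraries) and as SCNT embryos at 6 hpa (6 libraries), which make 9 of the 68 samples in all. Expression was read for the 24421 genes with a gene name in the deposited tables. The study followed H3K9me3 and transcription in cloned mouse embryos, and this comparison sets the somatic starting state against the oocyte that received its nucleus. CCs came from cumulus-oocyte complexes of superovulated B6D2F1 mice aged 8 to 10 weeks, taken from the oviducts 14 h after hCG and freed with hyaluronidase. For the SCNT embryos, nuclei of such CCs were injected into enucleated metaphase II (MII) oocytes. These were activated for 6 h in Ca2+-free medium with 1 mM SrCl2 and 5 µg/mL cytochalasin B. The zona pellucida and polar bodies were then removed and 10 blastomeres entered each Smart-seq2 reaction, a protocol that amplifies full-length polyadenylated RNA. The number of CCs in a reaction was not given in the sources used here.

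An MII oocyte is transcriptionally silent and carries a store of mRNA made during its growth, which directs fertilization, the completion of meiosis and the first steps of development. Cumulus cells are granulosa cells that surround the oocyte, feed it through gap junctions, and after the ovulatory gonadotropin surge secrete a hyaluronan matrix and turn to steroid synthesis. After nuclear transfer the somatic nucleus lies in oocyte cytoplasm, so the RNA of a 1-cell SCNT embryo is chiefly a question of what the oocyte had stored and of what the donor cell brought. Enucleated oocytes without a donor nucleus were not analysed here, so RNA from the oocyte and RNA from the donor cell cannot be told apart.

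Levels are given as TPM, the share of a gene in the polyadenylated RNA captured for a library, corrected for transcript length. RNA without a poly(A) tail and the length of tails were not measured, so their part in the differences was not tested. A gene that takes a larger share in one group lowers the share of all others, and amounts of RNA per cell were not measured. The TPM of named genes was set against that of assembled loci without a gene name, which summed to 1000000 in every library. It came to 81.8 to 82.5% of that sum in CCs and 68.6 to 76.3% at 6 hpa. The named genes came on top of this sum and were not a part of it. CC libraries held 9813 to 10340 named genes at 1 TPM or more (mean 10117 ± 273 SD, n = 3), against 8301 to 9417 at 6 hpa (9018 ± 406, n = 6). The 100 highest genes took 40.8 ± 1.72% of the named TPM in CCs and 47.8 ± 1.74% at 6 hpa. For each of these 3 values the groups did not overlap (exact permutation test, two-sided, all 84 splits, p = 0.0238 for each and 0.0238 after adjustment over the 3 values). This is the smallest p that 84 splits allow, so it restates the lack of overlap and cannot grade the 3 differences. With a limit of 0.1 TPM the gene numbers overlapped, with 12386 to 12705 in CCs and 12128 to 16472 at 6 hpa. Coverage divided by FPKM, a measure of aligned bases, was 3.06 to 3.27 in CCs and 1.91 to 5.17 at 6 hpa. Across the tested genes the correlation of log2 values was 0.964 to 0.968 between CC libraries, 0.941 to 0.981 between libraries of 6 hpa and 0.23 to 0.302 between the groups. Genes are not independent replicates, so these are descriptions.

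The labels of both groups were checked against markers. All 12 oocyte markers were higher at 6 hpa, and 4 of them were listed at 0 in all CC libraries. The summed level of the 12 was 27023 to 33162 TPM at 6 hpa and 6.43 to 12.3 TPM in CCs. Of 11 cumulus and granulosa markers 8 were tested and 7 were higher in CCs, with summed levels over the 11 genes of 1742 to 3002 TPM in CCs and 26.9 to 49.6 TPM at 6 hpa. The exception was Cyp19a1, the aromatase, which was higher at 6 hpa. Has2, the hyaluronan synthase of expanding cumulus, had 0.591, 1.12 and 0.341 TPM in the 3 CC libraries, and Foxl2, a granulosa transcription factor, had 1.42, 1.56 and 3.78. Fshr, the follicle-stimulating hormone receptor, had 3.05, 4.33 and 0.44 TPM. These defining granulosa genes were thus low in CCs, and none reached the mean of 1 TPM over the 9 libraries needed for the test. Over CCs alone Foxl2 and Fshr had means of 2.25 and 2.61 TPM, so their absence from the test also reflects the lower 6 hpa libraries.

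Of the markers listed for other cells, those of leukocytes and the keratins of epithelium were found in CCs. Of 9 leukocyte markers 7 were tested, 6 were higher in CCs and none at 6 hpa. Their summed level was 146 to 287 TPM in CCs and 3.28 to 11.9 TPM at 6 hpa. Cd52 made up much of it with 117, 131 and 107 TPM in the CC libraries, while the pan-leukocyte gene Ptprc had 0.0352, 0.0177 and 0.506 TPM and the macrophage receptor Csf1r 1.09, 2.18 and 1.12. Lyz2, a lysozyme of myeloid cells, had 59.1, 0.148 and 25.7 TPM, so it was close to 0 in CC replicate 2 alone and overlapped with the 6 hpa libraries, of which the highest had 0.151. Fcer1g, an Fc receptor chain, went with it at 27.0, 5.05 and 19 TPM and was listed at 0 in all 6 hpa libraries. Of 6 oviduct epithelium markers Krt8 (144, 275 and 109 TPM) and Krt18 (116, 198 and 113 TPM) were higher in CCs, while Ovgp1, the oviduct glycoprotein, had 0.0896, 0.079 and 1.72 TPM and Epcam 0.301, 0.229 and 0.28. The 5 theca and stroma markers summed to 0.408 to 2.03 TPM in CCs and the 5 erythroid markers to 0 to 2.64 TPM. Among 6 endothelium markers, Cdh5 was higher in CCs (5.88, 6.09 and 4.27 TPM) and Pecam1 at 6 hpa (lowest 5.86, median 8.67, highest 13.4 TPM). The part of leukocytes or epithelium in the differences given below was not tested, and in such bulk libraries fewer cells of a type and less RNA per cell cannot be told apart.

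Most genes differed between the donor cell and the reconstructed oocyte. Of 11169 genes with a mean of at least 1 TPM over the 9 libraries, 8473 (75.9%) passed the threshold, which asked for a limma adjusted p under 0.05 and for 2-fold or more. Of these, 3537 (31.7% of the tested genes) were higher at 6 hpa and 4936 (44.2%) were higher in CCs. The counts of every gene group given here are to be read beside these shares. The mean is taken over 6 libraries of 6 hpa and 3 of CCs. A gene present at 6 hpa alone thus reaches the test at a lower level than a gene present in CCs alone, and the shares carry this. In 8051 of the 8473 the values of the groups did not overlap. Over all 11169 tested genes this held for 8605, so a lack of overlap was the common case. A difference of at least 8-fold was seen for 1202 genes higher at 6 hpa and 2030 higher in CCs, and one of at least 64-fold for 221 and 232. Fold changes are on the log2(TPM + 1) scale, 6 hpa minus CCs, which understates the change of genes at low level. The median over all tested genes was -0.53, and quantile normalization moved it to -0.02, with 4161 genes higher at 6 hpa and 4259 higher in CCs. The plot of mean levels shows genes along both axes as well as along the diagonal. Among the genes higher at 6 hpa, 599 were listed at 0 in all 3 CC libraries, while 45 of those higher in CCs were listed at 0 in all 6 libraries of 6 hpa. A value of 0 in all 6 libraries is a stricter demand than in all 3, so these counts cannot be set against each other. Such genes reached the test through the other group alone and could only be higher in it, in every gene group below. Named genes listed at 0 numbered 9126 to 10464 in a CC library and 4709 to 9650 in a library of 6 hpa. Nothing in the labels says whether replicates were separate pools or animals, so p-values measure the spread between these libraries, which may be technical. The protocol in the labels speaks of 3 replicates a stage, 6 libraries at 6 hpa were present, and whether replicates 4 to 6 form another batch is not stated. Coverage divided by FPKM was 3.06 to 5.17 in SCNT replicates 1 to 3 and 1.91 to 2.76 in replicates 4 to 6. With replicates 1 to 3 alone 8526 genes passed (3275 higher at 6 hpa and 5251 in CCs), and with replicates 4 to 6 alone 8514 (3470 and 5044).

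**Figure D1:**
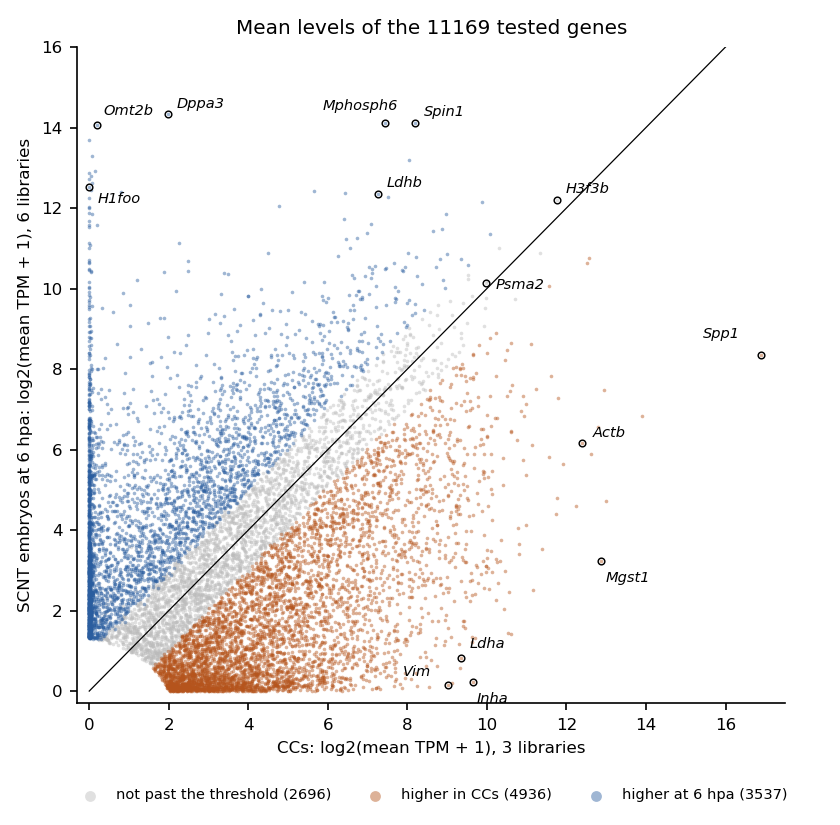
Mean level of each of the 11169 tested genes, with log2(mean TPM + 1) of the 3 CC libraries on the x axis and of the 6 SCNT libraries at 6 hpa on the y axis; blue genes were higher at 6 hpa (3537), brown genes higher in CCs (4936) and grey genes did not pass the threshold (2696), and the line marks equal levels. Omt2b and H1foo lie at the left edge and Inha and Vim at the lower edge, while H3f3b and Psma2 lie near the line.

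By level alone, with no test, 446 genes had at least 10 TPM in every CC library and under 1 TPM in every 6 hpa library, and 438 showed the opposite pattern. These sets are called here genes of CCs alone and of 6 hpa alone. Their numbers depended on the limits, with 427 and 563 genes at 5 TPM and under 0.5 TPM, and 241 and 313 at 20 TPM and under 1 TPM. The 446 genes of CCs alone held 2.32 to 2.74% of the named TPM in CCs and 0.0105 to 0.0153% at 6 hpa. The 438 genes of 6 hpa alone held 22.8 to 26.8% of the named TPM at 6 hpa and 0.00303 to 0.00387% in CCs. Of the latter, 203 were listed at 0 in all 3 CC libraries, and 13 of the former were at 0 in all 6 libraries of 6 hpa, which is the stricter demand. A further 2072 genes had at least 10 TPM in all 9 libraries and held 65.5 to 69.2% of the named TPM in CCs and 54.5 to 58.1% at 6 hpa. Of these 2072 shared genes 568 were higher at 6 hpa and 635 higher in CCs, both lower shares than the 31.7% and 44.2% of all tested genes. The limit of 10 TPM in all 9 libraries leaves out every gene near 0 in a group. Lower shares are thus favoured by the definition and are not a result about these genes.

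**Figure D2:**
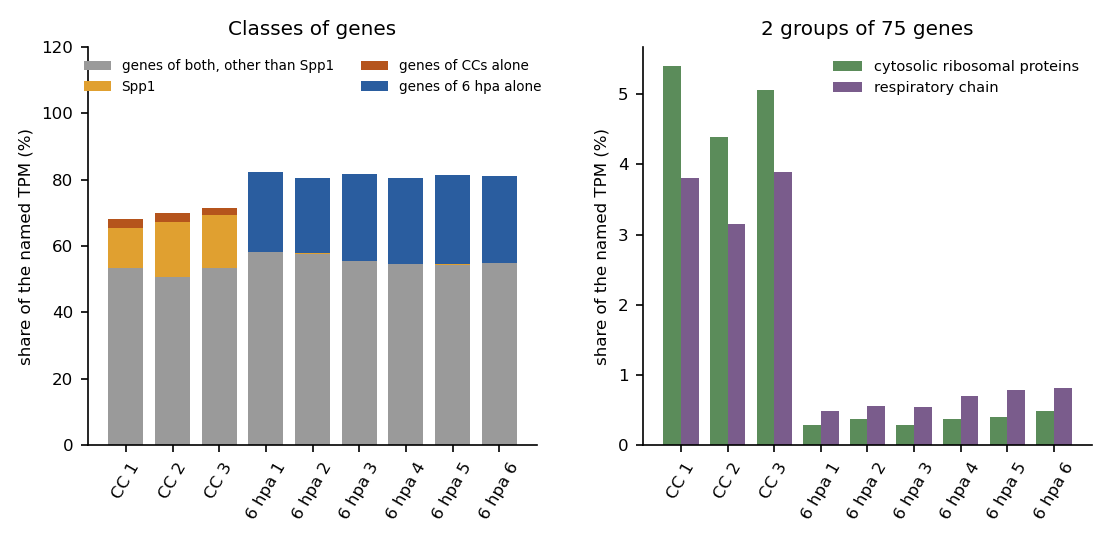
Share of the named TPM (%) in each of the 9 libraries, on the left for the 3 classes of genes, with Spp1 drawn apart from the other genes present in both groups, and on the right for 75 cytosolic ribosomal protein genes and 75 respiratory chain genes. Spp1 took 12 to 16.7% in CCs and genes of 6 hpa alone 22.8 to 26.8% at 6 hpa, and the ribosomal share was 4.39 to 5.4% in CCs and 0.284 to 0.491% at 6 hpa.

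The most abundant RNA of CCs was Spp1 (chr5:104435111-104441053, mm10), which encodes the secreted phosphoprotein osteopontin. It had 97817, 137886 and 129077 TPM in the CC libraries and 255 to 426 TPM at 6 hpa (median 315), a log2 fold change of -8.56 ± 0.18 (SE, limma adjusted p = 1.6e-12). The ferritin chains Ftl1 (18470, 15560 and 11629 TPM) and Fth1 (7841, 7385 and 5930 TPM), which store iron, were also among the highest, with medians of 120 and 97.2 TPM at 6 hpa. Rgcc, a regulator of the cell cycle, had 8340, 7367 and 8579 TPM in CCs and 19.2 to 33.1 TPM at 6 hpa. None of these values overlapped between the groups. Mgst1, a membrane glutathione transferase, had 7320, 7019 and 8097 TPM in CCs against 5.27 to 12.7 at 6 hpa (median 8.24, log2 fold change -9.68 ± 0.24, limma adjusted p = 7.1e-12). Mgst1 and Inha had the largest log2 fold changes on the CC side among abundant genes. They were followed by the heparan sulfate proteoglycan Sdc4, the annexin Anxa1, the secreted Wnt antagonist Sfrp4, the intermediate filament gene Vim, the receptor signalling inhibitor Spry2, the protease inhibitor Timp1, the tetraspanin Cd63 and the serum- and glucocorticoid-induced kinase Sgk1. Their log2 fold changes lay between -9.33 (Sdc4) and -8.59 (Sgk1).

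At 6 hpa the most abundant RNA was Dppa3 (chr6:122626424-122630271), also called Stella, a maternal factor that protects DNA methylation of the early embryo. Its lowest, median and highest values were 17396, 20961 and 23496 TPM, against 3.96, 2.51 and 2.33 TPM in CCs (log2 fold change 12.37 ± 0.15, limma adjusted p = 1.7e-14). Spin1, a histone methylation reader needed for meiotic resumption, had 14302 to 24491 TPM at 6 hpa (median 15452) and 223, 275 and 378 TPM in CCs. Mphosph6, an RNA exosome cofactor, had 15114 to 20546 TPM (median 16986) against 164, 142 and 210. The largest log2 fold changes on the 6 hpa side among abundant genes were in Omt2b and in Tcl1, an activator of the kinase AKT. Omt2b had 15266 to 19114 TPM (median 16805) against 0.0516, 0.388 and 0 in CCs (log2 fold change 13.87 ± 0.14, limma adjusted p = 1.3e-14). Tcl1 had 7446 to 17712 TPM (median 14252) and was listed at 0 in all CC libraries. Fbxw24, Fbxw14, Omt2a, E330034G19Rik, Fbxw28, Oog3, H1foo and Dppa3 completed this set of 10, and each stood at 2280 TPM or more in every 6 hpa library and at 3.96 TPM or less in every CC library. Fbxw, Omt2, Oog and Obox genes have near-identical copies, among which the assembly could have divided reads, so the level of a member is uncertain.

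Genes of the egg coat and of signals secreted by the oocyte were higher at 6 hpa in 9 of 10 cases and in none higher in CCs (median 7.53). Of the 10, 7 were listed at 0 in all CC libraries and could only be higher at 6 hpa. Zp1, Zp2 and Zp3 encode the zona pellucida and were listed at 0 in all 3 CC libraries. Zp3 (chr5:135980105-135988624), the most abundant of the 3, had 35.9 to 121 TPM at 6 hpa (median 115, limma adjusted p = 5.9e-09), while Zp1 had 4.04 to 29.8 (median 23.3) and Zp2 18.5 to 53.4 (median 39.9). Bmp15 and Gdf9 encode the growth factors by which the oocyte directs its cumulus cells. Bmp15 had 1627 to 2636 TPM at 6 hpa (median 2244) and 0, 0 and 0.0158 in CCs (log2 fold change 11.05 ± 0.18, limma adjusted p = 1.7e-13). Gdf9 had 255 to 1158 TPM (median 907) and 0.864, 2.23 and 0 in CCs. The oocyte-secreted proteins Oosp1 and Oosp3 had medians of 3305 and 3562 TPM and were listed at 0 in all CC libraries. Bmp6 did not pass the threshold.

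The promoter of Zp3 is shown because this gene marks the oocyte side of the comparison and the promoters of zona genes are known for E-boxes bound by the oocyte factor FIGLA. The window, 250 bases before to 50 after the start annotated by RefSeq (GRCm38.p6, plus strand, chr5:135979855-135980154), is written 5′ to 3′ with matches to the E-box CANGTG in capitals:
Zp3: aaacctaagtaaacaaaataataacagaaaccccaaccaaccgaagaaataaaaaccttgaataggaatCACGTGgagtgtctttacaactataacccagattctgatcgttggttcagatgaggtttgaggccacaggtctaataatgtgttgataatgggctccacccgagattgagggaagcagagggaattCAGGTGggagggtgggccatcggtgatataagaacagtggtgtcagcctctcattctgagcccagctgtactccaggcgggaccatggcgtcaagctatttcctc
The matches, read on both strands, were CACGTG, starting 181 bases before the start, and CAGGTG, 55 bases before it. Of 32851 mouse promoters of this length in the reference table, 44.9% held CANGTG, so the match is a description of this window and not a site.

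All 8 genes of the subcortical maternal complex, a protein assembly under the egg membrane that the embryo needs for its first divisions, were higher at 6 hpa (median 7.06). Nlrp4f had 518 to 680 TPM at 6 hpa (median 617) and was listed at 0 in all CC libraries. Padi6 was likewise listed at 0 in CCs and had 35.2 to 129 TPM at 6 hpa. Ooep had 248 to 404 TPM (median 293) against 0.359, 0.0672 and 0.527 in CCs. Traces in CCs were highest for Tle6 (6.37, 1.30 and 4.33 TPM, against 30.5 to 85.5 at 6 hpa) and Zbed3 (6.60, 4.37 and 0.465 TPM, against 1511 to 2601), in both cases without overlap.

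The 10 tested oocyte transcription factors were all higher at 6 hpa (median 5.38), and Figla and Sohlh1 were too low for the test. Of the 10, 5 were listed at 0 in all CC libraries, so they were tested through 6 hpa alone and could only be higher there. The homeobox genes Obox1, Obox2 and Obox5 were the most abundant, with medians of 3608, 4897 and 4204 TPM at 6 hpa. In CCs, Obox2 and Obox5 were listed at 0 and Obox1 had 0, 0 and 0.123 TPM. Sall4, a zinc finger factor of oocytes and stem cells, had 186 to 315 TPM (median 278) and at most 0.0409 TPM in CCs.

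**Figure D3:**
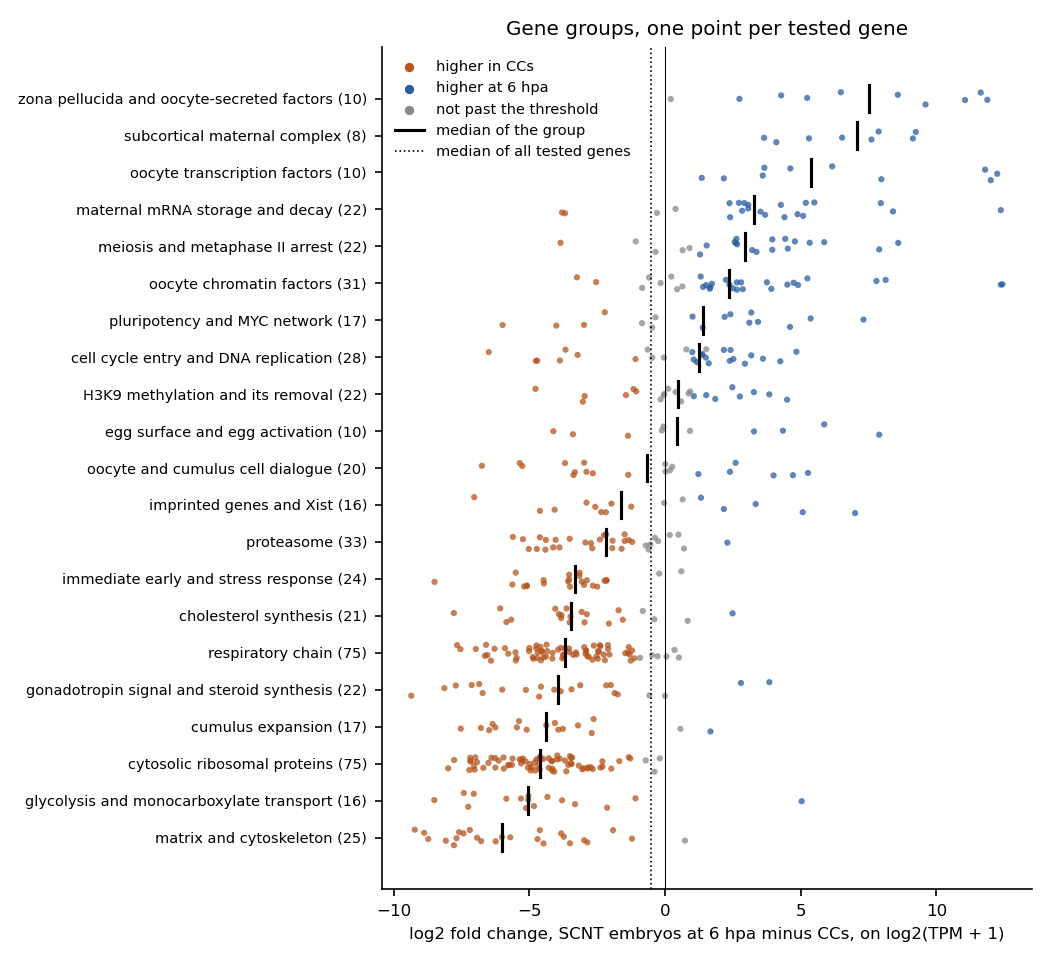
Log2 fold change of SCNT embryos at 6 hpa minus CCs, on log2(TPM + 1), for each tested gene (points) of 21 gene groups, with the number tested in brackets, a bar at the median of the group and a dotted line at the median of all tested genes (-0.53). Group medians run from 7.53 for zona pellucida and oocyte-secreted factors to -6.01 for matrix and cytoskeleton.

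Genes that store maternal mRNA or bring about its decay were higher at 6 hpa in 18 of 22 cases (median 3.29). Btg4, the adaptor that brings the CCR4-NOT deadenylase to maternal mRNA, had 4166 to 7114 TPM (median 5770) against 0.0998, 0 and 0 in CCs (log2 fold change 12.37 ± 0.19, limma adjusted p = 1.1e-13). Cnot7, a catalytic subunit of that deadenylase, was present in both, with 850 to 1513 TPM (median 967) at 6 hpa and 146, 167 and 126 in CCs. Zar1, which organises stored mRNA, had 121 to 377 TPM and at most 0.071 in CCs. Pan3 and Lsm14a were 3.68 and 3.06 higher on the log2 scale. The exceptions were Zfp36l2, an AU-rich element binding protein (24.6, 21.9 and 21.7 TPM in CCs against 0.588 to 1.26), and Zcchc11, a uridylyl transferase (14.8, 20.2 and 16.9 TPM against 0.0688 to 0.854). Both were higher in CCs without overlap.

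Of the genes of meiosis and metaphase II arrest, 17 of 22 were higher at 6 hpa and 1 was higher in CCs (median 2.93). Pttg1, which encodes securin, had 8262 to 10630 TPM (median 9356) against 169, 151 and 474 in CCs (log2 fold change 5.33 ± 0.28, limma adjusted p = 3.7e-09). Ccnb1, the cyclin of maturation promoting factor, had 1825 to 2989 TPM (median 2595) against 110, 117 and 88.1. Its partner Cdk1 was the exception, with 71.1, 91.8 and 65.0 TPM in CCs and 2.53 to 5.36 (median 4.99) at 6 hpa (log2 fold change -3.86 ± 0.25, limma adjusted p = 2.6e-08). The RNAs of the kinase and of its cyclin thus lay on opposite sides. Mad2l1, a spindle checkpoint protein, had 1670 to 2945 TPM at 6 hpa and 85, 95 and 99.2 in CCs. Mos, the kinase that maintains the arrest, had 2.19 to 19 TPM (median 12.6) and was listed at 0 in CCs. Wee2, a kinase that inhibits CDK1, and Fbxo43, which maintains the MII arrest, had medians of 231 and 64.2 TPM at 6 hpa and at most 0.339 in CCs.

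Of 10 genes of the egg surface and of egg activation, 4 were higher at 6 hpa and 3 higher in CCs, with a median of 0.43. With so few genes these counts are near the shares over all tested genes, 31.7% and 44.2%. Those higher in CCs were Cd9, the tetraspanin needed for sperm fusion (619, 791 and 668 TPM against 29.0 to 52.5), the cation channel Trpm7 (12.5, 19.1 and 15.7 against 3.57 to 9.37) and the calcineurin subunit Ppp3ca (80.3, 96.7 and 87.2 against 5.44 to 10.5). With TPM rescaled over named genes, 7 genes of this group were higher at 6 hpa in place of 4.

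Among chromatin factors of the oocyte, 23 of 31 were higher at 6 hpa and 2 were higher in CCs (median 2.37). H1foo, the oocyte linker histone, had 2280 to 7456 TPM (median 6552) and was listed at 0 in all CC libraries. Npm2, a histone chaperone, had 382 to 616 TPM (median 564) against 0.788, 0.231 and 2.04 in CCs. Enzymes that set and remove DNA methylation were on the same side. Tet3, which oxidises 5-methylcytosine, had 159 to 328 TPM (median 277) against 7.90, 10.4 and 7.32. Dnmt1, the maintenance methyltransferase, had 41.1 to 70.0 TPM (median 49.4) against 3.68, 2.28 and 1.76, and its partner Uhrf1 had 56.1 to 154 TPM (median 122) against 1.48, 3.03 and 1.70. None of these groups of values overlapped. The exceptions were the H3K4 demethylase Kdm5b (21.5, 25.9 and 25.8 TPM in CCs against 1.09 to 2.17) and H3f3a, a gene of the variant histone H3.3 (766, 706 and 664 against 101 to 158). H3f3b, the other gene of H3.3, encodes the same protein and did not pass the threshold, with 3016, 3247 and 4208 TPM in CCs and 4003 to 5806 (median 4514) at 6 hpa. H2afz, the variant histone H2A.Z, was not in the group and was higher in CCs (7646, 7947 and 7858 TPM against 153 to 189, median 182, log2 fold change -5.45 ± 0.12, limma adjusted p = 2.4e-12).

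Of 22 tested writers, readers and erasers of H3K9 methylation, the mark the study followed, 8 were higher at 6 hpa, 6 were higher in CCs and 8 did not pass (median 0.49), beside 31.7% and 44.2% of all tested genes. The methyltransferase Suv39h2 had 34.0 to 71.5 TPM at 6 hpa (median 48.8) against 4.64, 3.87 and 0.56 in CCs (log2 fold change 3.84 ± 0.41, limma adjusted p = 2.0e-06). It had 69.0, 71.5 and 58.8 TPM in SCNT replicates 1 to 3 and 38.8, 34.0 and 36.1 in replicates 4 to 6, and passed with either set alone (4.26 and 3.41). Its paralog Suv39h1 had 6.17, 9.34 and 4.94 TPM in CCs and 3.85 to 8.21 (median 5.54) at 6 hpa and did not pass (limma adjusted p = 0.57). The values of Suv39h1 overlapped and those of Suv39h2 did not. Setdb1, the methyltransferase that acts at retroelements, had 24.6 to 34.9 TPM (median 31.0) against 11.8, 13.6 and 17.2, and its log2 fold change of 1.06 ± 0.20 became 0.94 and lost the 2-fold limit without CC replicate 1. Trim28, the corepressor that recruits it, had 36.7, 40.6 and 33.6 TPM in CCs and 26.9 to 55.9 at 6 hpa and did not pass (log2 fold change 0.11 ± 0.26, limma adjusted p = 0.69).

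Mphosph8, a reader of H3K9me3, had 460 to 512 TPM (median 467) at 6 hpa against 18.4, 20.9 and 21.4 in CCs. Its HUSH complex partner Fam208a was higher in CCs (15.8, 19.4 and 18.9 TPM against 4.07 to 10.5, median 5.46). Atrx, a chromatin remodeller of heterochromatin, had 17.4, 23.4 and 20.5 TPM in CCs, 187, 230 and 157 in SCNT replicates 1 to 3 and 85.9, 68.1 and 67.2 in replicates 4 to 6. It passed with either set alone, with log2 fold changes of 3.15 and 1.80. Genes higher in CCs were the H3K9me2 methyltransferase Ehmt2 (11.2, 9.48 and 4.67 TPM against 0 to 0.295), the HP1 genes Cbx3 (492, 489 and 813 against 13.1 to 30.6) and Cbx5 (13.5, 17.4 and 12.1 against 3.44 to 10.0), and the demethylases Kdm3a (17, 23.6 and 15.4 against 0.78 to 3.45) and Kdm3b (4.01, 5.58 and 4.44 against 1.36 to 2.31). Under quantile normalization 3 genes of this group were higher in CCs in place of 6, so the number on the CC side rested on the scaling.

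The H3K9me3 demethylases used to improve cloning in the field were low on both sides. Kdm4a was higher at 6 hpa, with 1.85 to 5.24 TPM (median 3.38) against 0, 0.319 and 0.36 in CCs (log2 fold change 1.85 ± 0.25, limma adjusted p = 2.1e-05). Kdm4b and Kdm4d had means over the 9 libraries too low for the test. Kdm4b had 2.49, 3.06 and 1.52 TPM in CCs and at most 0.562 at 6 hpa, without overlap. Kdm4d had 0.89, 0.0599 and 0.252 TPM in CCs and at most 0.708 at 6 hpa.

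Of the genes known for early genome activation, 20 were in the tables and 16 of them had a mean under 1 TPM. Dux had 0, 0.406 and 0 TPM in CCs and 0 to 2.07 (median 0.19) at 6 hpa. All 5 Usp17l genes were listed at 0 in CCs, and Usp17lb was the highest of them at 6 hpa with 0.184 to 0.836 TPM. Of the 4 tested genes, Zscan4d (0.889 to 4.48 TPM at 6 hpa, 0, 0.0811 and 0 in CCs), Tcstv1 (316 to 603 TPM, listed at 0 in CCs) and Tcstv3 (60.6 to 137 TPM, listed at 0 in CCs) were higher at 6 hpa. Obox6 was listed at 0 in 3 CC libraries, had 0 to 9.15 TPM at 6 hpa and did not pass. Tcstv1, Tcstv3 and Obox6 were thus tested through their 6 hpa level alone and could only be higher there. Many members of these families are near-identical copies, so their levels are uncertain. In another setting the level was the larger of the gene's own TPM and that of an assembled locus over it. There 12103 genes were tested and 7 of this group in place of 3 were higher at 6 hpa. This setting can only raise a level, so more genes reach the test. The cause was not tested.

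In the pluripotency and MYC network, 10 of 17 tested genes were higher at 6 hpa and 4 higher in CCs (median 1.39), beside 31.7% and 44.2% of all tested genes. A further 11 were too low for the test. Klf17 (93.7 to 220 TPM, median 174), Dppa5a (106 to 143, median 120) and Dppa2 (30.1 to 85.9, median 40.4) were the most abundant at 6 hpa, with at most 4.25 TPM in CCs. Pou5f1, which encodes OCT4, had 0.191 to 8.99 TPM (median 4.62) against 0, 0.141 and 0, while Sox2 and Nanog were at or under 2.19 and 0.368 TPM in every library. Of the MYC genes, Myc and Mycn were higher in CCs, and Mycl was too low for the test. Myc had 107, 76.0 and 60.6 TPM in CCs and 0.0693 to 0.435 (median 0.276) at 6 hpa (log2 fold change -5.99 ± 0.23, limma adjusted p = 3.2e-10), and Mycn had 5.67, 3.15 and 4.21 TPM against 0 to 0.291. Klf2 and Tdgf1, a coreceptor of NODAL, were also higher in CCs.

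Max, the obligate partner of MYC proteins, had 6.75, 11.8 and 4.71 TPM in CCs and 12.4 to 21.7 (median 14.3) at 6 hpa. The groups did not overlap but the highest CC library and the lowest 6 hpa library were close. Its log2 fold change of 1.01 ± 0.29 (limma adjusted p = 0.0061) stood at the 2-fold limit and fell under it when CC replicate 1 (0.96), CC replicate 3 (0.74), SCNT replicate 2 (0.92) or SCNT replicate 6 (0.93) was left out. Mcrs1, another factor the study named, had 27.2, 32.3 and 22.2 TPM in CCs and 10.1 to 34.8 at 6 hpa and did not pass (log2 fold change -0.36 ± 0.35, limma adjusted p = 0.36).

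On the side of the donor cell, 15 of 17 tested genes of cumulus expansion were higher in CCs (median -4.38). Tnfaip6, which links hyaluronan to protein, had 968, 830 and 794 TPM in CCs and 2.67 to 12 (median 7.79) at 6 hpa (log2 fold change -6.79 ± 0.35, limma adjusted p = 2.8e-09). Ptgs2, the inducible prostaglandin synthase, had 255, 224 and 250 TPM against 0 to 0.942. Ptx3 (102, 106 and 69.4 TPM) and Vcan (55.6, 52.6 and 47.0 TPM), components of the expanded matrix, stood at or under 0.649 TPM at 6 hpa. Sult1e1, the estrogen sulfotransferase, had 111, 113 and 148 TPM against 0 to 1.01. None of these overlapped. The exception was Ptger4, a prostaglandin E receptor, with 0.592, 0 and 0.0619 TPM in CCs and 2.34 to 3.81 at 6 hpa. Egfr, the receptor of the EGF-like factors, had 5.10, 2.83 and 2.85 TPM in CCs and 3.69 to 7.57 at 6 hpa and did not pass.

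Areg (chr5:91139615-91148432) and Ereg encode EGF-like factors that relay the luteinizing hormone signal to cumulus cells. Areg had 24.9, 8.63 and 19.8 TPM in CCs and 0 to 0.13 TPM at 6 hpa (log2 fold change -4.06 ± 0.28, limma adjusted p = 3.6e-08), and Ereg had 15.5, 11.8 and 14.5 against 0 to 0.465. All CC libraries thus lay above all 6 hpa libraries for both. The promoter of Areg is shown because luteinizing hormone acts through cAMP and this gene marks that response. The window follows the start annotated by RefSeq (GRCm38.p6, plus strand, chr5:91139349-91139648), with the cAMP response element TGACGTCA and the TATA-box TATAAA in capitals:
Areg: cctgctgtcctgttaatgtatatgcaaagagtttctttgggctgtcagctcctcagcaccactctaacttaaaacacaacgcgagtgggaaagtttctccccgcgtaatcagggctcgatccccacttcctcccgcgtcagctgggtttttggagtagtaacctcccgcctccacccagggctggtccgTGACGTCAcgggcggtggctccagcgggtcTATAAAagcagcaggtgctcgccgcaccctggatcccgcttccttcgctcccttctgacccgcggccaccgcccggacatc
TGACGTCA started 61 bases before the start and TATAAA 31 bases before it, and the motifs do not overlap. Searched on both strands, TGACGTCA was in 1.79% and TATAAA in 13.6% of the 32851 promoters.

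Genes of the gonadotropin signal and of steroid synthesis were higher in CCs in 18 of 22 cases (median -3.97). Several of these genes act between cholesterol and progesterone. Star, which moves cholesterol into mitochondria, had 189, 192 and 145 TPM in CCs and at most 0.602 at 6 hpa. Cyp11a1, the side-chain cleavage enzyme, had 705, 471 and 275 TPM against 0.385 to 2.01, and its electron donor Fdx1 had 1754, 1089 and 1235 against 27.4 to 72.1. Hsd3b1, which forms progesterone, had 1322, 1114 and 1162 TPM against 1.05 to 7.2 (log2 fold change -8.14 ± 0.40, limma adjusted p = 1.8e-09). Akr1c18, which inactivates progesterone, was the most abundant of the group in CCs, with 5492, 5570 and 7855 TPM against 34.7 to 122. All 5 were on the CC side without overlap.

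The inhibin subunit genes Inha (chr1:75507077-75510354, 1020, 921 and 458 TPM) and Inhba (135, 131 and 89.2 TPM) had medians of 0.0281 and 0.527 TPM at 6 hpa. Inha had the second largest difference of the abundant genes higher in CCs (log2 fold change -9.36 ± 0.29, limma adjusted p = 5.4e-11). Receptors and regulators were lower in level. Lhcgr, the luteinizing hormone receptor, had 14.5, 4.94 and 8.33 TPM in CCs and Nr5a1, steroidogenic factor 1, had 10.0, 17.7 and 9.27, against at most 0.338 and 0.594 at 6 hpa. Hsd17b1, which forms estradiol, had 31.9, 30.6 and 26.7 TPM against 0 to 1.20. The exceptions were Cyp19a1 (3.96, 2.34 and 2.06 TPM in CCs against 14.3 to 35.0, median 27.9, log2 fold change 2.79 ± 0.30, limma adjusted p = 2.1e-06) and Esr2, estrogen receptor beta (0.371, 1.83 and 1.36 against 25.9 to 34.7, median 28.6). The enzyme that makes estrogen and this estrogen receptor were thus on the oocyte side, without overlap.

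**Figure D4:**
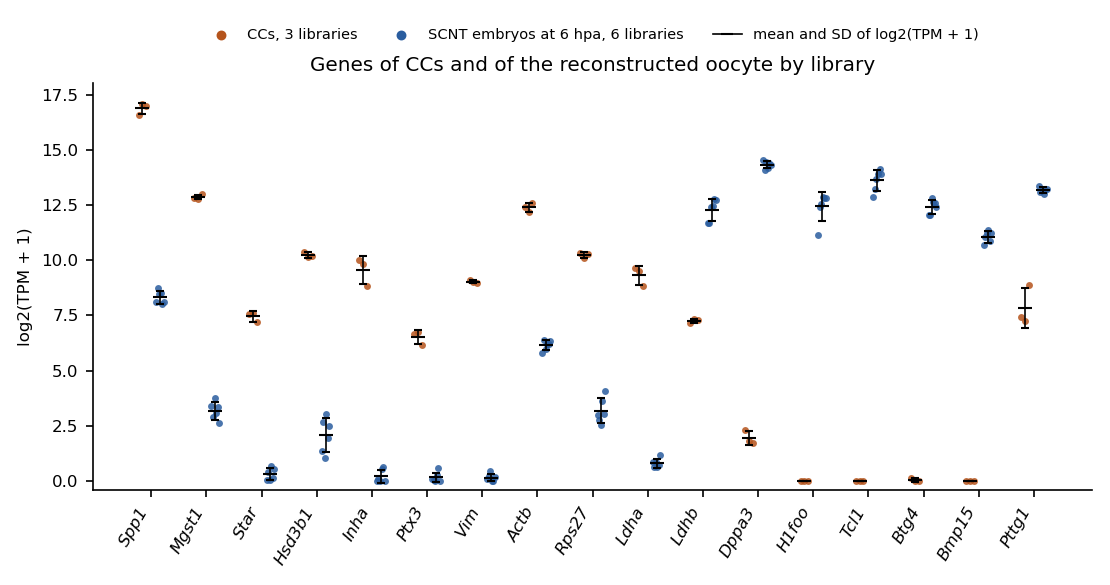
Level of 17 genes in each library as log2(TPM + 1) on the y axis, with brown points for the 3 CC libraries, blue points for the 6 SCNT libraries at 6 hpa, and a bar and whiskers for mean and SD. Genes from Spp1 to Ldha lie higher in CCs and genes from Ldhb to Pttg1 higher at 6 hpa, and in none do the points of the groups overlap.

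Of 20 tested genes for signals between the oocyte and its cumulus cells, 6 were higher at 6 hpa and 10 in CCs (median -0.68), which is near the shares over all tested genes (31.7% and 44.2%, median -0.53). Of the gap junction genes, Gja1, the connexin between cumulus cells, had 1332, 1778 and 2212 TPM in CCs and 8.11 to 19 at 6 hpa (log2 fold change -6.75 ± 0.28, limma adjusted p = 4.8e-10). Gja4, the connexin of the oocyte side, had 6.91 to 25.9 TPM at 6 hpa (median 19.5) and 0, 0.0616 and 0 in CCs. The receptor Kit was at 24.9 to 31.9 TPM at 6 hpa and at or under 0.136 in CCs, whereas its ligand Kitl had 2.99, 2.35 and 3.86 TPM in CCs and 1.97 to 6.29 at 6 hpa and did not pass (log2 fold change 0.18 ± 0.30, limma adjusted p = 0.59). The natriuretic peptide receptor Npr2, which keeps the oocyte arrested, had 12.3, 12.1 and 7.89 TPM in CCs and at most 0.341 at 6 hpa. Its ligand Nppc, a product of mural granulosa cells, was at or under 1.21 TPM in every library.

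For NOTCH signalling the ligand Jag1 was on the oocyte side, with 350 to 887 TPM (median 511) at 6 hpa against 9.32, 13.4 and 16.1 in CCs (log2 fold change 5.27 ± 0.27, limma adjusted p = 3.1e-09). The receptor Notch2 was on the CC side, with 109, 106 and 172 TPM against 1.72 to 4.13 (log2 fold change -5.26 ± 0.26, limma adjusted p = 2.2e-09). Receptors for the oocyte factors were divided. Tgfbr1, the type I receptor used by GDF9, had 118, 144 and 120 TPM in CCs and 4.94 to 13.3 at 6 hpa. Bmpr1b, a type I receptor used by BMP15, was higher at 6 hpa (45.2 to 118 TPM, median 81.5, against 12.2, 12.5 and 16.9), as were the transducer Smad3 (30.4 to 41.5 TPM against 6.11, 3.74 and 5.38) and the receptor Fgfr2 (2.91 to 5.33 against 0.895, 1.49 and 0.473).

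**Figure D5:**
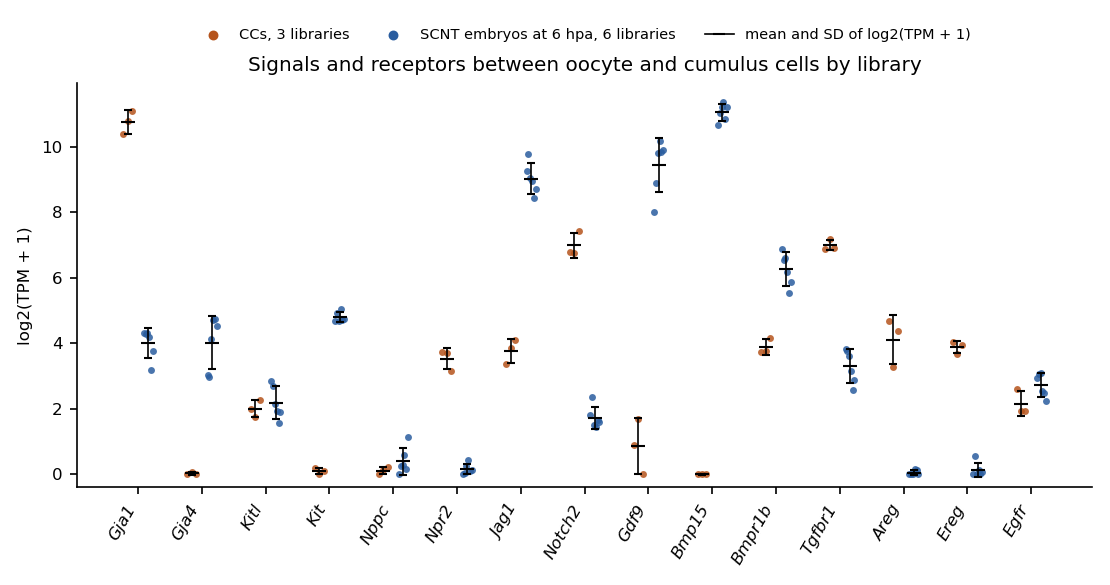
Level of 15 genes of signals, receptors and gap junctions between oocyte and cumulus cells in each library, as log2(TPM + 1) on the y axis, with brown points for CCs (3 libraries), blue points for SCNT embryos at 6 hpa (6 libraries), and mean and SD. Jag1, Gdf9, Bmp15, Kit and Gja4 lie higher at 6 hpa and Gja1, Notch2, Tgfbr1, Npr2, Areg and Ereg higher in CCs, while Kitl, Nppc and Egfr overlap.

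Genes of extracellular matrix and cytoskeleton had the lowest median of the 21 groups plotted, with 24 of 25 higher in CCs and none at 6 hpa (median -6.01). Actb, cytoplasmic actin, had 5359, 4641 and 6189 TPM in CCs and 54.5 to 81.9 (median 72.3) at 6 hpa (log2 fold change -6.24 ± 0.17, limma adjusted p = 1.6e-11). Vim had 553, 514 and 501 TPM against 0 to 0.351. Serpine2, a secreted protease inhibitor, had 2890, 3909 and 2608 TPM in CCs and 113 to 278 TPM at 6 hpa. Timp1 (2472, 2203 and 2136 TPM against 2.44 to 8.81) and Anxa2 (1929, 2006 and 1461 against 6.68 to 15.8) completed the most abundant members. All were without overlap.

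Immediate early and stress response genes, which cells induce within minutes of a stimulus or of handling, were higher in CCs in 22 of 24 cases and higher at 6 hpa in none (median -3.33). Ier3 was the most abundant, with 985, 949 and 551 TPM in CCs and 0.119 to 3.43 at 6 hpa. Fos had 59.1, 53.3 and 48.9 TPM against 0 to 1.59, Egr1 53.3, 51.1 and 40.9 against 0.775 to 2.54, and Jun 5.26, 3.35 and 3.52 against 0 to 0.188. Btg1 and Btg2, antiproliferative genes, had 103, 100 and 118 and 123, 126 and 98.2 TPM in CCs and at most 40.1 and 11.3 at 6 hpa. The phosphatase gene Dusp1 did not pass, with 127, 71.4 and 61.3 TPM in CCs and 51.4 to 86.3 (median 72.3) at 6 hpa (log2 fold change -0.22 ± 0.25, limma adjusted p = 0.42).

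Of the glycolysis and monocarboxylate transport genes 15 of 16 were higher in CCs (median -5.04). Aldoa (1372, 1277 and 690 TPM against 1.12 to 16.2), Eno1 (1304, 1145 and 578 against 3.36 to 10.2) and Tpi1 (954, 851 and 574 against 2.31 to 5.77), enzymes of glycolysis, were the most abundant in CCs. Gapdh had 595, 541 and 347 TPM against 7.57 to 14.3 and Pkm, pyruvate kinase, 367, 304 and 173 against 1.92 to 16.6. The lactate dehydrogenase subunits lay on opposite sides. Ldha had 790, 717 and 452 TPM in CCs and 0.53 to 1.25 (median 0.722) at 6 hpa (log2 fold change -8.51 ± 0.24, limma adjusted p = 2.1e-11). Ldhb, the heart-type subunit, had 3248 to 7019 TPM (median 5572) at 6 hpa and 142, 161 and 154 in CCs (log2 fold change 5.03 ± 0.25, limma adjusted p = 2.0e-09), and it was the only member higher at 6 hpa.

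Cholesterol synthesis genes were higher in CCs in 17 of 21 cases (median -3.49). Fdps, which makes farnesyl pyrophosphate, had 1508, 1330 and 1381 TPM in CCs and 0.685 to 12.1 at 6 hpa. Msmo1, a sterol oxidase, had 646, 551 and 501 TPM against 29.9 to 64.7. Insig1, which restrains the pathway, was the exception with 835 to 2362 TPM (median 1172) at 6 hpa and 210, 199 and 304 in CCs. Hmgcs1, an early enzyme, had 426 to 895 TPM at 6 hpa and 273, 347 and 372 in CCs. It did not reach the 2-fold limit (log2 fold change 0.83 ± 0.22, limma adjusted p = 0.0035) and passed it with TPM rescaled over named genes (1.02) and under quantile normalization.

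Genes of cell cycle entry and DNA replication were higher at 6 hpa in 16 of 28 cases and higher in CCs in 7 (median 1.26), beside 31.7% and 44.2% of all tested genes. Those higher at 6 hpa included the replication licensing factors Cdt1 (10.9 to 23.8 TPM against 1.96, 1.97 and 3.04) and its inhibitor Gmnn (1043 to 1327 TPM, median 1277, against 157, 121 and 127), Pcna (337 to 479 against 173, 141 and 163) and Ccna2 (111 to 142 against 19.3, 15.6 and 12.5). The members higher in CCs were parts of the G1 control of somatic cells. Cdk4 had 265, 239 and 139 TPM in CCs and 0.86 to 3.48 at 6 hpa (log2 fold change -6.50 ± 0.32, limma adjusted p = 2.2e-09). The inhibitors Cdkn1a (121, 112 and 63.5 against 1.38 to 6.05), Cdkn1b (122, 137 and 227 against 3.42 to 9.21) and Cdkn2c (10.2, 12.9 and 18.6 against 0 to 0.44) were on the same side, as were Ccnd2 and Cdk2. Ccnd3 was past the threshold with values that overlapped (13.7, 6.27 and 6.15 TPM against 1.45 to 8.26), and its log2 fold change of -1.09 ± 0.39 (limma adjusted p = 0.020) became -0.75 without CC replicate 1 and -0.93 without SCNT replicate 2.

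Of 31 genes in the group of imprinted genes and Xist, 16 were tested, 5 were higher at 6 hpa and 9 in CCs (median -1.61). Over all tested genes the shares were 31.7% and 44.2% (median -0.53), and with so few genes the counts are near them. Phlda2 had 104 to 155 TPM (median 126) at 6 hpa and was listed at 0 in CCs, and Mest had 27.4 to 64.3 against 0.572, 0.00879 and 0. Grb10, Cdkn1c and Zim1 were the others higher at 6 hpa. In CCs, Nap1l5 (141, 151 and 117 TPM against 0 to 0.181), Snrpn (118, 124 and 102 against 9.44 to 28.5) and Impact (66.2, 66.0 and 84.7 against 1.19 to 6.25) were the most abundant. Xist, the RNA that coats the inactive X chromosome of somatic female cells, had 6.81, 7.66 and 6.70 TPM in CCs and 0.0324 to 0.167 (median 0.0668) at 6 hpa (log2 fold change -2.90 ± 0.17, limma adjusted p = 7.4e-09). The 15 genes not tested had a mean under 1 TPM.

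The machinery of protein synthesis and respiration took a larger share in CCs. Of 75 cytosolic ribosomal protein genes, 72 were higher in CCs and none at 6 hpa (median -4.61), and together they held 4.39 to 5.4% of the named TPM in CCs and 0.284 to 0.491% at 6 hpa. Rpl35 had 1985, 1621 and 2417 TPM in CCs and 26.4 to 54.6 at 6 hpa, and Rps27 had 1274, 1082 and 1259 against 4.85 to 16.1. Eef1a1, the translation elongation factor, went with them at 3617, 3561 and 3302 TPM against 19.1 to 36. Ribosomal protein genes have many processed copies, so the level of each is uncertain. Of 75 respiratory chain genes, 69 were higher in CCs and none at 6 hpa (median -3.68), with 3.15 to 3.89% of the named TPM in CCs and 0.494 to 0.815% at 6 hpa. Examples were Cox4i1 (1364, 1103 and 1171 TPM against 62.2 to 175) and Atp5o (991, 953 and 1139 against 3.75 to 15.3). The plot of shares by library shows no overlap of the groups for either set.

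Of 33 proteasome genes 24 were higher in CCs, 1 was higher at 6 hpa and 8 did not pass the threshold (median -2.18). Psmb6 had 1353, 1278 and 1577 TPM in CCs and 244 to 349 at 6 hpa and Psmb1 954, 820 and 1130 against 45.9 to 70.0. Psma2 was nearly level, with 983, 924 and 1090 TPM in CCs and 972 to 1448 (median 1074) at 6 hpa (log2 fold change 0.17, 95% interval -0.14 to 0.48). Psma7 had 1279, 1179 and 1313 TPM against 1488 to 2301 and did not reach the 2-fold limit. Psmd9, a chaperone of proteasome assembly, was the exception at 33.0 to 110 TPM against 15.1, 16.3 and 11.4.

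Some genes were among the most abundant on both sides and did not pass the threshold. H3f3b had the highest level of these (log2 fold change 0.44, 95% interval 0.12 to 0.76). The peroxiredoxin Prdx1 had a mean of 2569 ± 199 TPM (SD, n = 3) in CCs and 1901 ± 374 TPM (n = 6) at 6 hpa (log2 fold change -0.46, 95% interval -0.82 to -0.09). Ywhae, a 14-3-3 adaptor, had 999 ± 135 and 874 ± 97.5 TPM (-0.19, interval -0.49 to 0.11). The interval of each lay within the 2-fold limit. Prdx2 lay at that limit, with 1656 ± 245 and 861 ± 260 TPM (-0.99, interval -1.50 to -0.48).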

How the data were processed

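RNA-seq tables of 3 CC and 6 SCNT 6 hpa libraries were used. The authors prepared Smart-seq2 libraries and, per the submitters' processing notes, used cutadapt 1.16, HISAT2, StringTie and Cufflinks with mm10, and the deposited gene tables hold coverage, FPKM and TPM, with no counts, so the count model of the study could not be applied. The deposited TPM (recorded as a signal, since its columns sum to more than 1000000 over assembled loci and named genes) was summed per gene name. Coverage and FPKM were used only for their quotient. Counting was not stated to use strand, so overlapping and antisense genes cannot be told apart. No read counts were given, so no counting interval could be made.

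Genes with a mean of at least 1 TPM over the 9 libraries were tested on log2(TPM + 1) with limma 3.58.1 (R 4.3.3, lmFit and eBayes with a trend, no covariates) with Benjamini-Hochberg adjustment. Genes past the threshold had an adjusted p under 0.05 and at least a 2-fold change. The fit was tested on simulated data. Lists were described by counts and medians with no test. Members and lists were chosen with earlier results of these data known. Named genes were the 10 largest changes in each direction without overlap and with a mean of at least 50 TPM in the higher group, the 4 most abundant members of each list, members past the threshold against the direction of their list, and factors the study names. Further genes were chosen after their values were seen, among them Spp1, Spin1, Mphosph6, Rgcc, Ftl1, Fth1, Zp1, Zp2, Zp3, Areg, Ereg, Star, Lhcgr, Has2, Fshr, Foxl2, Kitl, Nppc, Npr2, Egfr, Fos, Egr1, Jun, Ldha, Gapdh, Pkm, Xist, Sox2, Nanog, Mos, Tet3, Dnmt1, Uhrf1, H2afz, Eef1a1 and the shared abundant genes. RefSeq promoters (GRCm38.p6) matched 79.7% of the tested genes and under 80% of most gene sets, so comparing promoter content over sets was void, and 2 promoters are shown. Alternatives were another pseudocount, other filters, rescaled and quantile-normalized TPM, a fit of 56 CC and SCNT libraries and subsets of libraries. Chosen after seeing the data were rescaling without Spp1 and levels raised to that of an assembled locus where it was higher.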

Additional observations from a re-analysis of the deposited data

Results flagged for a closer look

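Among the genes described, 166 groups of 6 SCNT libraries at 6 hpa were examined for a library far from the others, by Dixon's ratio of the gap of the outermost library to the range of its group, and 16 exceeded the 95% critical value for 6 libraries. Chance flags about 1 in 20 such groups. Replicate 2 was low for Fbxw24 (ratio 0.723, 7115 TPM) and high for Nlrp5 (0.811, 293 TPM), Cdkn1b (0.68, 9.21 TPM), Fgfr2 (0.786, 5.33 TPM), Notch2 (0.676, 4.13 TPM) and Ptger4 (0.713, 3.81 TPM). Replicate 1 was low for Btg2 (0.695, 4.02 TPM) and H2afz (0.72, 153 TPM) and high for Egr1 (0.734, 2.54 TPM) and Kdm3a (0.726, 3.45 TPM). Replicate 6 was high for Sgk1 (0.886, 5.97 TPM), Obox6 (0.86, 9.15 TPM) and Cox7c (0.645, 11.8 TPM). Akr1c18 was high in replicate 3 (0.644, 122 TPM), Ccnd3 in replicate 4 (0.661, 8.26 TPM) and Cdk4 in replicate 5 (0.797, 3.48 TPM). Apart from Obox6, which did not pass, and Ccnd3, whose groups overlapped, all 6 values of each of these genes lay on the same side of the CC values.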

How the results depend on the processing

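Over 23 alternatives the genes past the threshold numbered 5555 to 9110, those higher at 6 hpa 2494 to 4161 and those higher in CCs 3061 to 5467. The lowest values, 5555 in all and 3061 higher in CCs, came with a mean of at least 5 TPM, which tests 7209 genes. All other counts were within 1.5 times the reported ones. Leaving out each library in turn gave 8120 to 8551 in all, 3453 to 3604 higher at 6 hpa and 4550 to 5033 higher in CCs. At 20 TPM in place of 10, genes of CCs alone numbered 241, genes of 6 hpa alone 313 and genes of both groups 1275, and at 5 TPM and under 0.5 TPM they numbered 427, 563 and 3009. Replicate numbers did not pair the samples (correlations of same-numbered deviations -0.08, 0.03 and -0.10), and a fit with the replicate block over replicates 1 to 3 called 8613 genes, of which 3307 were higher at 6 hpa and 5306 in CCs. Of 195 named genes tested, 181 kept direction and side of the threshold under all 23 alternatives, and none changed direction among genes past it. Of 1334 recomputed list counts 1303 stayed within 1.5 times. At an unadjusted p under 0.05, 9428 genes differed. Tables without counts limit what can be said of genes near 0.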
